A study of Mus musculus with 9 samples.

Results

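The translation initiation factor genes of mouse megakaryocyte-erythroid progenitors are described here in cells with mutant JAK2. Members are the genes of the deposited count table whose symbol begins with Eif and a digit from 1 to 6, leaving out the interferon-induced kinase gene Eif2ak2 and the sex-linked pair Eif2s3x and Eif2s3y. The rule found 51 of 17769 genes. Eif3j1 and Eif3j2 held identical counts in all 9 libraries, so they cannot be told apart and were counted once, under Eif3j1, which leaves 50 genes. All 51 passed the filter on low counts, which kept 13608 genes.

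The RNA is from bone marrow of mice, sorted by FACS for the population labelled MEP, and the mice are on the C57BL/6N strain background. The group VF carried SclCre with V617F, the group E12 carried SclCre with Exon12, and the labels name the third group WT with no allele. SclCre is a Cre recombinase named for Scl, a gene of blood stem and progenitor cells, and the JAK2 mutations were induced with 5 daily injections of tamoxifen. VF and WT cells were taken 12 weeks and E12 cells 6 weeks after tamoxifen, so a comparison of E12 with either other group is one of genotype and of time together. The libraries are VF 1, VF 2 and VF 3, E12 1, E12 2 and E12 5, and WT 50, WT 51 and WT 52, and values of single libraries are given in that order throughout. Whether replicates are separate mice is not in the labels, so the p-values cover the spread among these libraries alone, part of which may be technical.

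Initiation factors bring the small ribosomal subunit, the initiator tRNA and the mRNA together. eIF4E binds the mRNA cap, the scaffold eIF4G joins it to the helicase eIF4A and to eIF3 on the ribosome, and eIF2 delivers the initiator tRNA and is recharged with GTP by its exchange factor eIF2B. Kinases that phosphorylate eIF2 slow initiation by holding eIF2B, and in erythroid cells the heme-regulated kinase HRI, the product of Eif2ak1, ties globin synthesis to the supply of heme.

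Total counts were 19256431 to 21331168 in VF, 20328414 to 23499914 in E12 and 33838681 to 39736096 in WT. Short genes weighed more in WT: genes under 1 kb held 11.2% to 27.9% of WT counts, the most in WT 50, and 6.92% to 8.97% of mutant counts. Those over 5 kb held 4.37% to 7.92% and 14.2% to 16.3%. The labels give each library a serial number, close together in VF and E12 and far off in WT, without saying what it marks, and in a comparison with WT the genotype cannot be told apart from whatever it marks. Of the MEP markers Kit, Gata1, Gata2 and Zfpm1, each was present in every group, with a summed level of 972 to 1086 CPM (read counts relative to library size, with TMM factors) in VF, 829.5 to 1048 in E12 and 524 to 1211 in WT. The 10 erythroid markers summed to 1276 to 2003 CPM in VF, 9061 to 12853 in E12 and 23289 to 37143 in WT. In the edgeR fit described below, 9 of them were called lower and 0 higher in VF against WT (20.9% and 27.7% of all genes). In E12 against WT only 4 were called lower and 1 higher (18.1% and 23.9%). The sums of the 9 megakaryocyte markers ran the other way, at 2068 to 2659, 368 to 466 and 57.1 to 175 CPM, with Itgb3 at 0 in WT. The 7 stem and multipotent markers stood at 1290.5 to 1376, 283 to 524 and 19.2 to 35.2 CPM, with Procr and Mecom at 0 in WT. Neutrophil markers summed to 6456 to 12015 CPM in VF, 1917 to 2114 in E12 and 496 to 7633 in WT. Mast cell and basophil markers summed to 265 to 327, 29.4 to 134 and 25.6 to 122 CPM in the same order. B cell markers summed to 122 to 233, 27.4 to 589.9 and 314 to 3759.8 CPM with Ms4a1 at 0 in WT, and T and NK cell markers to 483 to 552, 101 to 241 and 121 to 1119.8 CPM. The part of these cell types in the results below was not tested, and in such bulk samples fewer cells of a type and less RNA per cell cannot be told apart.

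Initiation factor transcripts took the smallest share of counts in VF. Their share of all counts, which needs no scaling, was 1.27% to 1.32% in VF, 1.52% to 1.75% in E12 and 1.85% to 1.98% in WT, and the ranges of the 3 groups did not overlap. The summed erythroid markers were also lowest in VF. Eif5a alone, which codes for a factor that helps ribosomes through difficult stretches, made up 18.0% to 20.6% of the members' counts in the mutants and 24.3% to 31.9% in WT. Without Eif5a the share was 1.02% to 1.05% in VF, 1.24% to 1.40% in E12 and 1.26% to 1.43% in WT, so VF remained lowest while E12 and WT overlapped. CPM values, unlike this share, depend on the TMM factors, and a low factor raises every CPM of its library. The factors were 0.456 in WT 50, 0.841 in WT 51 and 0.869 in WT 52. They were 1.26 to 1.28 in VF and 1.09 to 1.19 in E12. In WT 50 the members' share was 1.85%, the lowest of the WT libraries. Their summed CPM was 40583 there, 23504 in WT 51 and 21657 in WT 52. CPM gaps that involve WT thus rest in part on scaling.

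**Figure D1:**
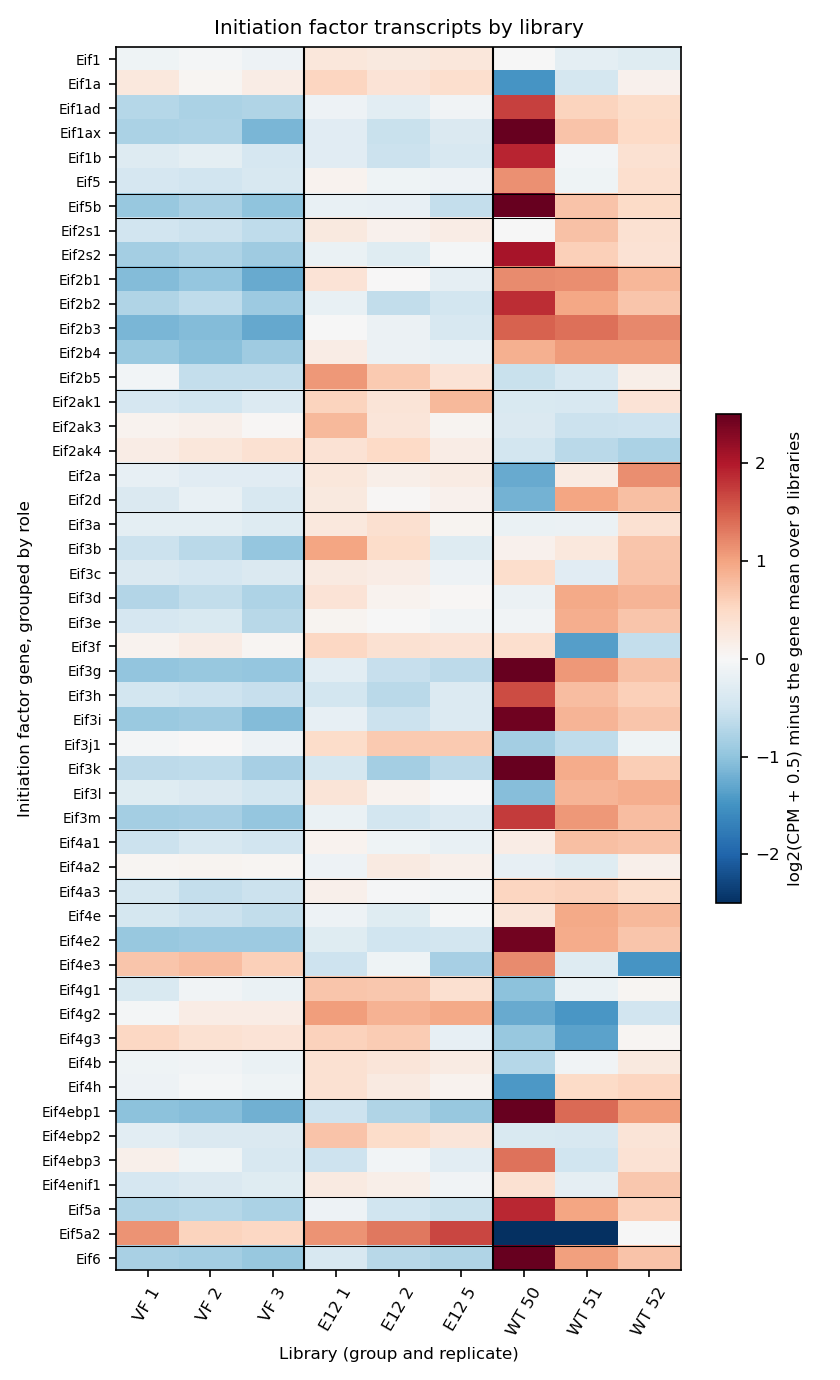
Level of each initiation factor gene (rows, grouped by role) in each library (columns), as log2 CPM minus the gene's mean over the 9 libraries, red above and blue below that mean. VF columns are mostly blue, E12 columns lie between, and WT 50 has the darkest red rows, among them Eif4ebp1, Eif3g, Eif5b and Eif6.

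Against WT, VF cells had lower transcripts of most initiation factors. In edgeR's quasi-likelihood fit, with Benjamini-Hochberg adjustment over all tested genes, 26 of 50 members fell and 3 rose in VF at an adjusted p below 0.05, where 20.9% of all tested genes fell and 27.7% rose. The libraries of VF and WT did not overlap for 29 members that were lower and 5 that were higher in VF, against 23.0% and 39.7% of all genes. The median log2 fold change of the members was -0.97, and that of all tested genes was 0.36. On the deposited log2 levels, which have near-identical distributions in all libraries, the members' median was -0.21 beside 0.16 for all genes. There limma called 18 members lower and 9 higher, where it called 24.3% and 25.5% of all genes, and 16 of its 18 were among the 26. In the fit of VF and WT libraries only, 22 fell and 1 rose (16.2% and 21.3% of genes), without Eif1b, Eif2s1, Eif3e and Eif5 among the lower and Eif4g2 and Eif4g3 among the higher. The 3 higher calls became 1 without VF 2 or without VF 3 and 0 without WT 51.

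E12 cells also had more lower than higher initiation factor transcripts against WT. Of the 50 members 19 fell and 6 rose, where 18.1% of all tested genes fell and 23.9% rose. The groups did not overlap for 21 lower and 9 higher members, against 20.3% and 33.0% of all genes. The members' median log2 fold change was -0.49 beside 0.36 for all genes, but 0.16 beside 0.20 on the deposited log2 levels, where limma called 14 lower and 14 higher (20.5% and 21.1% of all genes). The fit of only E12 and WT libraries called 11 lower and 2 higher, against 10.5% and 12.7% of genes. Calls lost there were the lower ones of Eif1ad, Eif1ax, Eif1b, Eif2b1, Eif2s2, Eif4e, Eif5a and Eif5b (adjusted p from 0.054 to 0.099) and the higher ones of Eif2ak3, Eif2ak4, Eif2b5 and Eif4g1 (0.059 to 0.14). Without E12 2 or without E12 5, 11 members fell, and without E12 1, E12 2 or WT 51, 3 rose. Both comparisons with WT use the same 3 WT libraries.

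Since short genes weighed more in WT libraries, each member was set beside the 200 tested genes nearest to it in length. Members were still lower than such genes: the median of their differences from length neighbours was -0.82 on the log2 scale for VF against WT, with 41 members below and 9 above, and -0.33 for E12 against WT, with 36 below and 14 above. On the deposited levels those medians were -0.041 and 0.25. Within the members, fold change against WT went with length (Spearman correlation 0.49 for VF and 0.54 for E12 over 50 genes, which share their libraries), as it did over all 13608 genes (0.44 and 0.50). None of the 25 shorter members, 917 to 2413 bases, rose in VF and 17 fell, while of the 25 longer ones, 2469 to 7797 bases, 3 rose and 9 fell. With an offset for gene length in the edgeR fit, 33 members fell and 2 rose in VF (29.9% and 17.8% of all genes), and 25 fell and 4 rose in E12 (20.4% and 13.0%). Of the 26 genes that fell in VF without the offset 24 also fell with it, but of the 3 that rose 0 did. Without WT 50, 35 members fell and 4 rose in VF (27.1% and 32.8% of genes), and 28 fell and 9 rose in E12 (24.0% and 28.4%).

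**Figure D2:**
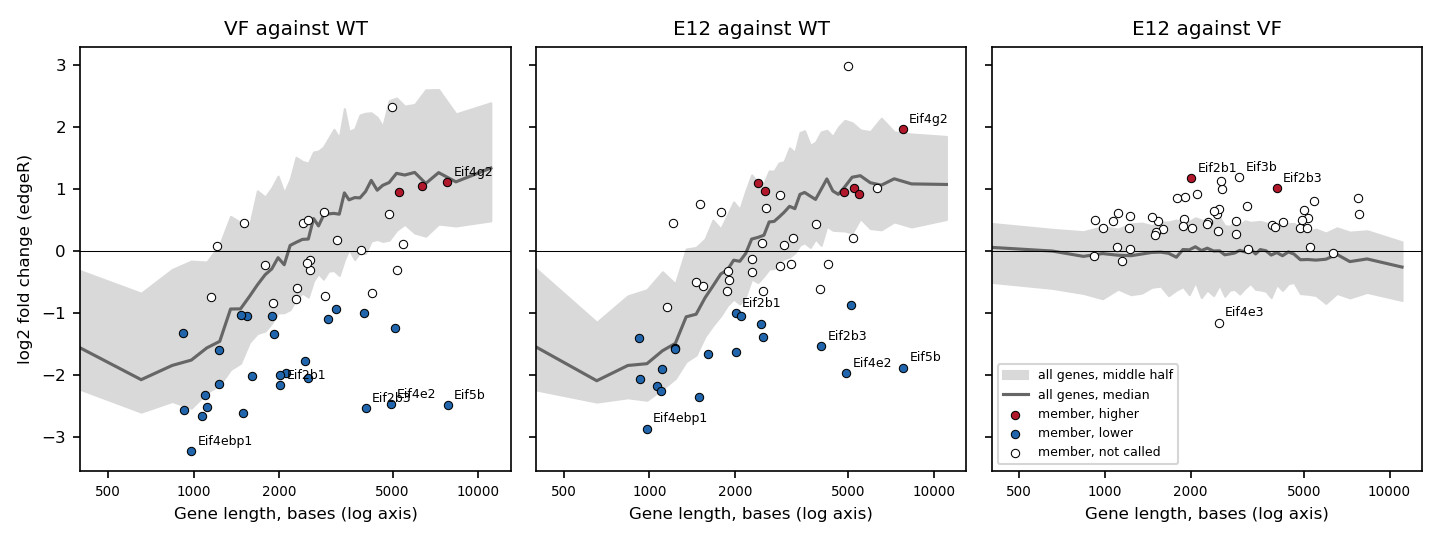
log2 fold change of each initiation factor gene against its length in bases (log axis) in the 3 comparisons, red for members called higher, blue for called lower and white for not called, over the median and the range between the quartiles of all tested genes (grey). In both comparisons with WT the grey median climbs with length and Eif2b3, Eif4e2 and Eif5b lie far below it at their length, while in E12 against VF the grey median is near 0 and 46 of the 50 members lie above 0.

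E12 cells had higher initiation factor transcripts than VF cells across nearly all roles. The E12 libraries were all above the VF libraries for 40 of 50 members and all below for 1, Eif4e3, where 28.2% and 31.3% of all tested genes did so. The members' median log2 fold change was 0.48, against -0.046 for all genes, and 46 of 50 were above 0. Length neighbours differed little, and 46 members lay above theirs, with a median difference of 0.50. Few single genes passed in the fit of all 9 libraries: edgeR called 2 higher, Eif2b1 and Eif2b3, and 0 lower (2.19% and 1.02% of all genes). Of the members 13 had an unadjusted p under 0.05, all of them higher (9.27% of all genes were higher and 8.48% lower at that level). DESeq2 called 14 higher and 0 lower (6.47% and 6.28% of genes), and limma on the deposited levels 7 higher and 0 lower (7.15% and 5.96%). In the edgeR fit of the 6 mutant libraries alone, 40 rose and 1 fell, where 25.4% of genes rose and 22.6% fell. Without WT 50 the edgeR fit called 24 higher and 1 lower (12.8% and 10.7% of genes), and without WT 52 it called 7 higher and 0 lower (5.11% and 3.78%). With the length offset it called 16 higher and 0 lower (7.69% and 2.71% of genes), and with any 1 mutant library left out it called 0. Genotype and time after tamoxifen cannot be told apart here, and the 10 erythroid markers were called higher in E12 than in VF, 10 of 10, with 5 megakaryocyte and 4 stem markers called lower.

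**Figure D3:**
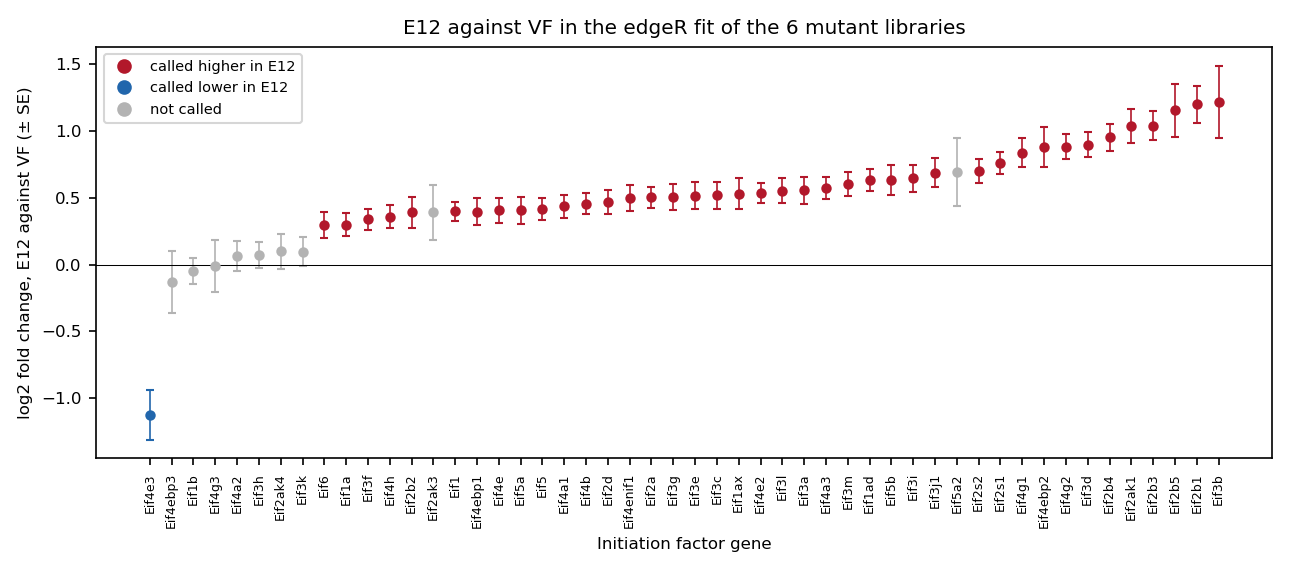
log2 fold change ± SE of each initiation factor gene in E12 against VF from the edgeR fit of the 6 mutant libraries, ordered by the fold change of the fit of all libraries, red for called higher, blue for called lower and grey for not called. Values run from Eif4e3 below 0 to Eif3b, with Eif2b1, Eif2b3, Eif2b4, Eif2b5 and Eif2ak1 near the upper end and Eif2b2 lower down.

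eIF2B, the exchange factor that recharges eIF2, had the highest median log2 fold change of the 15 role groups in E12 against VF, 1.01 over its 5 subunit genes, and 4 of the 5 fell in both mutants against WT. Eif2b1 (Entrez gene 209354, chromosome 5, 124570214 to 124579131, GRCm38.p6), which codes for the alpha subunit, was at 97.7, 107 and 86.8 CPM in VF, 265, 211 and 178 in E12 and 474, 468 and 369.6 in WT. No libraries of different groups overlapped, with VF lowest and WT highest. Eif2b1 fell in VF against WT (edgeR log2 fold change -2.17, SE 0.26, adjusted p = 0.00047) and in E12 against WT (edgeR log2 fold change -1.01, SE 0.25, adjusted p = 0.012). It rose in E12 against VF (edgeR log2 fold change 1.17, SE 0.25, adjusted p = 0.043). Eif2b3 (Entrez gene 108067, chromosome 4, 117019399 to 117086852), the gamma subunit gene, was at 53.7, 55.6 and 48.5 CPM in VF, 119, 108 and 90.6 in E12 and 333, 312 and 274 in WT, again with 3 separate groups in the same order. Against WT, Eif2b3 fell in VF (edgeR log2 fold change -2.54, SE 0.23, adjusted p = 0.00018) and in E12 (edgeR log2 fold change -1.53, SE 0.22, adjusted p = 0.0018). It also rose in E12 against VF (edgeR log2 fold change 1.01, SE 0.22, adjusted p = 0.043). With 4022 bases it is a long gene, and it lay -3.70 and -2.74 from the median log2 fold change of its length neighbours against WT, whose own medians were 1.16 and 1.21. The adjusted p of the E12 against VF difference ran from 0.00017 to 0.25 over 19 alternatives for Eif2b3 and from 0.00026 to 0.25 for Eif2b1.

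The other subunit genes followed in part. Eif2b4, for the delta subunit, was at 74.5, 69.0 and 76.4 CPM in VF, 162, 129 and 125 in E12 and 263, 299 and 297 in WT, with no overlap between groups. It fell in VF against WT (edgeR log2 fold change -1.97, SE 0.22, adjusted p = 0.00038), and E12 against VF missed the threshold (edgeR log2 fold change 0.92, SE 0.21, adjusted p = 0.055). Its exons share bases with Snx17 on the other strand, and these libraries do not keep strand, so reads of that overlap cannot be assigned. Eif2b2, for the beta subunit, was at 96.3, 104 and 86.4 CPM in VF, 144, 106 and 118 in E12 and 586, 319 and 264 in WT. Both mutants were below WT, with WT 50 far above the other WT libraries. Eif2b2 fell in both (edgeR log2 fold change -2.03, SE 0.33, adjusted p = 0.0017 for VF, log2 fold change -1.67, SE 0.33, adjusted p = 0.0056 for E12). Eif2b5, for the catalytic epsilon subunit, stood apart from the other 4 at 106, 72.7 and 73.3 CPM in VF, 234, 174 and 141 in E12 and 75.1, 83.7 and 122 in WT. VF and WT overlapped, while every E12 library was above both, and it rose in E12 against WT (edgeR log2 fold change 0.97, SE 0.30, adjusted p = 0.028). With the length offset that rise was 0.41 (adjusted p = 0.23). In the fit of the 6 mutant libraries all 5 eIF2B genes rose in E12 against VF.

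**Figure D4:**
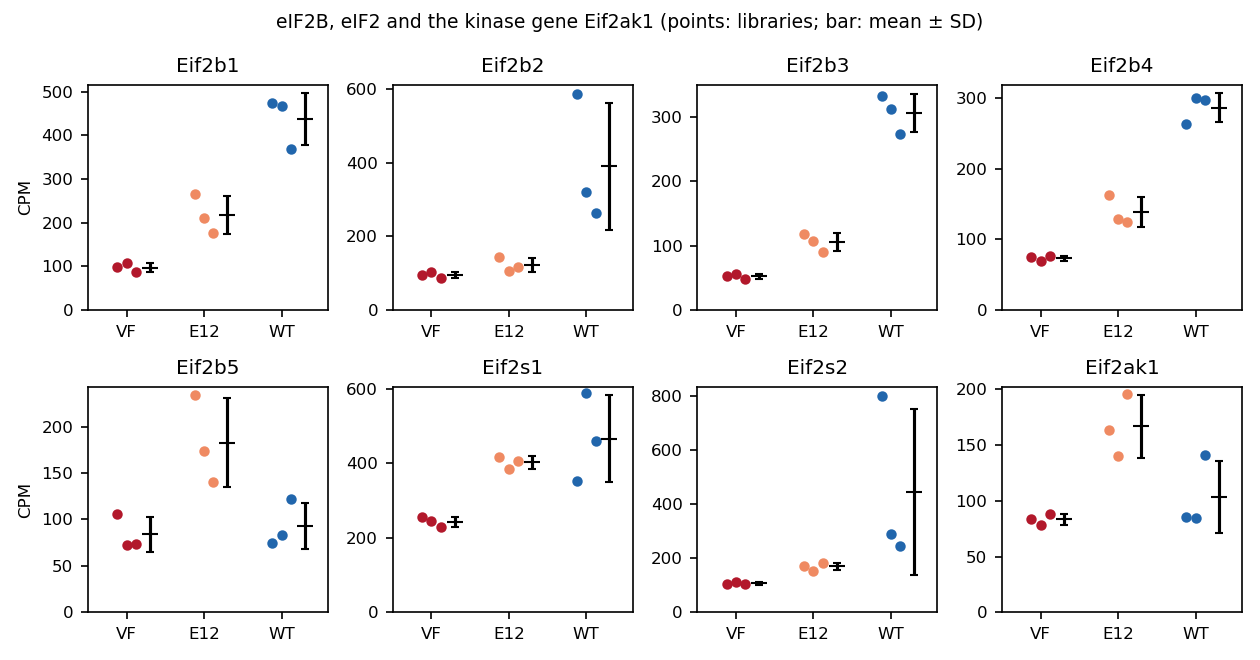
CPM of the 5 eIF2B subunit genes, 2 eIF2 subunit genes and the kinase gene Eif2ak1 in each library (points), with mean ± SD beside each group of 3 libraries. For Eif2b1, Eif2b3 and Eif2b4 the 3 groups are separate with VF lowest and WT highest, whereas for Eif2b5 and Eif2ak1 E12 has the highest mean.

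Transcripts of both eIF2 subunit genes among the members were lower in VF than in WT in the fit of all libraries. Eif2s1, which codes for the alpha subunit that carries the regulatory phosphorylation site, was at 255, 244 and 229 CPM in VF, 418, 384 and 404 in E12 and 352, 587 and 459 in WT. All VF libraries were below all others, and E12 lay within the WT range. Eif2s1 fell in VF against WT (edgeR log2 fold change -0.94, SE 0.26, adjusted p = 0.015), and E12 against VF gave a log2 fold change of 0.73 (adjusted p = 0.17; 0.00020 in the fit of the mutant libraries alone and from 0.00020 to 0.51 over 19 alternatives). On the deposited levels the VF against WT value turned to 0.24. Eif2s2, for the beta subunit, was at 106, 111 and 103 CPM in VF, 170.2, 155 and 184 in E12 and 798, 288 and 246 in WT. WT was highest and E12 lay between. It fell in VF (edgeR log2 fold change -2.06, SE 0.43, adjusted p = 0.0050) and in E12 against WT (edgeR log2 fold change -1.39, SE 0.42, adjusted p = 0.027). The gamma subunit genes are the sex-linked pair left out by the rule. Eif2a and Eif2d, for factors that can bring tRNA without eIF2, did not pass in any of the 3 comparisons of the fit of all libraries. Both rose in E12 against VF with the mutants alone, and both fell in each mutant against WT without WT 50.

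Of the 3 kinase genes for eIF2 among the members none fell against WT in the fit of all libraries. Eif2ak1, for HRI, was at 83.3, 78.7 and 88.0 CPM in VF, 164, 140.3 and 196 in E12 and 85.4, 84.2 and 141 in WT. E12 was above VF in every library and overlapped WT through WT 52. In the edgeR fit of all libraries E12 against VF did not pass (adjusted p = 0.083). With the mutants alone it rose (log2 fold change 1.03, SE 0.13, adjusted p = 0.00041), and the adjusted p ran from 0.00041 to 0.32 over 19 alternatives. VF against WT gave -0.31 (adjusted p = 0.35), which passed as lower with the length offset (-0.93, adjusted p = 0.0060) and without WT 50 (-0.54, adjusted p = 0.045). Exons of Eif2ak1 overlap Aimp2 and Ankrd61 on the other strand. Eif2ak4, for GCN2, the kinase that senses uncharged tRNA, was at 24.5, 26.3 and 28.1 CPM in VF, 27.6, 30.6 and 24.4 in E12 and 15.5, 13.3 and 12.2 in WT, with both mutants above WT. It rose in VF (edgeR log2 fold change 0.95, SE 0.24, adjusted p = 0.011) and in E12 (edgeR log2 fold change 1.01, SE 0.24, adjusted p = 0.011) against WT. Its length neighbours had medians of 1.29 and 1.17, and with the length offset the values turned to -0.49 and -0.29. Eif2ak3, for PERK, the kinase of the endoplasmic reticulum, was at 11.6, 11.9 and 11.1 CPM in VF, 19.4, 13.5 and 11.4 in E12 and 8.28, 7.35 and 7.38 in WT. WT libraries were lowest, and it rose in E12 against WT (edgeR log2 fold change 0.95, SE 0.32, adjusted p = 0.041), with -0.31 under the length offset. Within libraries the ratio of Eif2ak1 to Eif2ak4, per kilobase, was 6.93, 6.11 and 6.38 in VF. It was 12.1, 9.36 and 16.4 in E12 and 11.3, 12.9 and 23.5 in WT. VF was below E12 and below WT without overlap (exact permutation test, two-sided, p = 0.1 each, 0.179 adjusted over 52 such tests). That p is the smallest that 3 against 3 can give, and E12 and WT overlapped. In VF against WT the length neighbours of Eif2ak1 had a median of 0.44, beside 1.29 for those of Eif2ak4, and dividing by length does not remove this.

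Of the 6 genes listed under scanning and start codon choice, 4 fell in VF and 3 in E12 against WT, and 0 rose. The list holds Eif1ad, for which a part in scanning is not established here. Eif1ax, the X-linked gene for eIF1A, was at 102, 104 and 80.4 CPM in VF, 146, 120.2 and 139 in E12 and 1149.7, 294 and 251 in WT, far higher in WT 50 than in any other library. Eif1ax fell in both VF (edgeR log2 fold change -2.56, SE 0.56, adjusted p = 0.0057) and E12 (edgeR log2 fold change -2.06, SE 0.55, adjusted p = 0.016). Genes near its short length of 926 bases had medians of -1.66 and -1.68. Eif1, for the factor that guards start codon choice, is also short with 1211 bases but was nearly level at 92.0, 95.6 and 90.7 CPM in VF, 121, 117 and 120.3 in E12 and 98.3, 83.9 and 80.4 in WT, and E12 was the highest group. Its log2 fold change in VF against WT was 0.084, which lay 1.57 above the median of its length neighbours. Eif5, for the factor that activates the GTPase of eIF2, fell in VF (edgeR log2 fold change -1.01, SE 0.33, adjusted p = 0.030), and Eif1ad and Eif1b fell in both mutants. Of the 2792 annotated exon bases of Eif1ad, 428 overlap Banf1 on the other strand. For Eif1b, of 917 bases, the length offset turned the values to 0.057 (adjusted p = 0.84) in VF and 0.14 (adjusted p = 0.64) in E12, and it lay 0.30 and 0.26 above its length neighbours.

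Eif5b (Entrez gene 226982, chromosome 1, 37998010 to 38055579, GRCm38.p6) codes for the GTPase that joins the ribosomal subunits. It was at 102, 112 and 98.5 CPM in VF, 173, 171 and 131 in E12 and 1154, 321 and 275 in WT. Mutants and WT did not overlap, and E12 was above VF. Against WT it fell in VF (edgeR log2 fold change -2.48, SE 0.53, adjusted p = 0.0052) and in E12 (edgeR log2 fold change -1.88, SE 0.52, adjusted p = 0.018). It is the longest member with 7797 bases, its length neighbours had medians of 1.16 and 1.09, and it lay -3.65 and -2.97 from them. Of its 9753 annotated exon bases 1643 overlap Rev1 on the other strand.

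The 13 eIF3 genes with distinct counts code for the complex that binds the small subunit. In VF 8 of 13 fell and 0 rose, in E12 against WT 5 fell and 1 rose, and in E12 against VF 0 passed in the fit of all libraries but 11 rose in the fit of the mutants alone. Eif3g, for a subunit that binds RNA, was at 285, 294 and 287 CPM in VF, 468, 378 and 357 in E12 and 3339, 1202 and 941 in WT. WT libraries were all above the mutants and spread widely, with WT 50 at the top. Against WT, Eif3g fell in VF (edgeR log2 fold change -2.66, SE 0.48, adjusted p = 0.0025) and in E12 (edgeR log2 fold change -2.19, SE 0.47, adjusted p = 0.0074). Eif3i, its partner in the complex, was at 182, 188 and 165 CPM in VF, 303, 239.7 and 275 in E12 and 1874, 629 and 566 in WT. The order of groups was the same, and it fell in both mutants (edgeR log2 fold change -2.52, SE 0.47, adjusted p = 0.0029 in VF, log2 fold change -1.91, SE 0.46, adjusted p = 0.011 in E12). Eif3k, for a subunit at the edge of the complex, was at 261, 267 and 234 CPM in VF, 304, 229 and 264 in E12 and 2385, 783 and 636 in WT. VF and E12 overlapped, far below WT, and it fell in VF (edgeR log2 fold change -2.32, SE 0.49, adjusted p = 0.0051) and in E12 (edgeR log2 fold change -2.25, SE 0.49, adjusted p = 0.0076). These 3 genes measure 1068 to 1109 bases, and relative to their length neighbours they lay -0.88, -0.98 and -0.71 in VF, where the neighbours' own medians were -1.78, -1.54 and -1.61. In E12 they lay -0.32, -0.23 and -0.57 from neighbours at -1.86, -1.68 and -1.68, so most of each E12 difference was shared by genes of that length.

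Eif3a, for the largest core subunit, was at 288, 289 and 272 CPM in VF, 409, 451 and 358 in E12 and 304, 306 and 442 in WT. Every VF library was below the WT libraries by a small margin and E12 overlapped WT, and neither comparison with WT passed (edgeR log2 fold change -0.31, adjusted p = 0.32 in VF and 0.21, adjusted p = 0.52 in E12). With the length offset these values were -1.68 (adjusted p = 9.8e-05) and -1.02 (adjusted p = 0.0019), while the deposited levels gave 0.79 in VF. Eif3b, for the core subunit that carries an RNA recognition motif, was at 157, 143 and 116 CPM in VF, 449.8, 315 and 183 in E12 and 246, 273 and 369 in WT. VF was lowest and E12 and WT overlapped, and it fell in VF against WT (edgeR log2 fold change -1.10, SE 0.35, adjusted p = 0.028). In E12 against VF it had the largest fold change of the 50 members (edgeR log2 fold change 1.19, SE 0.35, adjusted p = 0.11), and the 3 E12 libraries differed widely. Eif3j1, for a loosely bound subunit, was at 49.1, 50.8 and 45.9 CPM in VF, 69.3, 79.7 and 79.6 in E12 and 27.9, 32.3 and 47.0 in WT. All E12 libraries were highest, and it rose in E12 against WT (edgeR log2 fold change 1.09, SE 0.24, adjusted p = 0.0081). Its exons overlap Spg11 on the other strand. Per kilobase, Eif3g was the highest and Eif3j1 the lowest subunit in each of the 9 libraries, and the ratio of highest to lowest was 10.1 to 15.3 in the mutant libraries and 45.2 to 271 in WT. Eif3g has 1068 bases and Eif3j1 2413, and their length neighbours had medians of -1.78 and 0.20 in VF against WT. Part of the wider ratio in WT was thus shared by genes of those lengths.

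At the cap, Eif4e, for the cap-binding protein, was at 232, 217 and 206 CPM in VF, 289, 255 and 303 in E12 and 389.6, 609.9 and 553 in WT. VF was lowest and WT highest without overlap, and it was called lower in VF (edgeR log2 fold change -1.24, SE 0.25, adjusted p = 0.0042) and in E12 (edgeR log2 fold change -0.87, SE 0.25, adjusted p = 0.021). Its 5115 bases make it long, and it lay -2.59 and -2.11 from its length neighbours. On the deposited levels neither fall passed, where limma gave -0.068 in VF (adjusted p = 0.86) and 0.078 in E12 (adjusted p = 0.85). Eif4e2, for a cap-binding relative that does not join eIF4G, was at 101, 105 and 104 CPM in VF, 158, 139 and 142 in E12 and 1036, 371 and 318 in WT. WT was highest and VF lowest, with no overlap, and it fell in VF (edgeR log2 fold change -2.48, SE 0.44, adjusted p = 0.0024) and in E12 (edgeR log2 fold change -1.98, SE 0.43, adjusted p = 0.0080). It too is long, at 4928 bases, and lay -3.46 and -2.94 from its neighbours. Eif4e3, for a further cap-binding relative, was at 50.2, 53.7 and 47.0 CPM in VF, 21.6, 28.8 and 17.2 in E12 and 71.0, 24.8 and 10.9 in WT. It was the one member with all E12 libraries below all VF libraries, while WT spanned both. For E12 against VF edgeR gave log2 fold change -1.16, SE 0.57, adjusted p = 0.34 in the fit of all libraries and log2 fold change -1.12, SE 0.18, adjusted p = 0.0015 with the mutants alone, and the adjusted p ran from 0.0015 to 0.63 over 19 alternatives. Eif4a3, whose product sits in the exon junction complex, fell in VF against WT.

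Eif4ebp1 (Entrez gene 13685, chromosome 8, 27260327 to 27275656, GRCm38.p6), for the repressor that blocks eIF4E until mTOR phosphorylates it, had the lowest log2 fold change of the 50 members in both comparisons with WT. It was at 137, 133 and 121 CPM in VF, 194, 165 and 145 in E12 and 2363, 744 and 578 in WT. Mutant and WT libraries did not overlap, and WT 50 was far above the other WT libraries. The fall was called in VF (edgeR log2 fold change -3.23, SE 0.53, adjusted p = 0.0017) and in E12 (edgeR log2 fold change -2.87, SE 0.52, adjusted p = 0.0042). It lay -1.45 and -1.06 from genes near its 981 bases. Per kilobase, the ratio of Eif4ebp1 to its target Eif4e was 3.08, 3.20 and 3.06 in VF, 3.51, 3.38 and 2.49 in E12 and 31.6, 6.36 and 5.45 in WT. Neither mutant group overlapped WT (exact permutation test, two-sided, p = 0.1, the smallest possible, and 0.179 adjusted), and VF and E12 overlapped. Dividing by length does not remove the greater weight of short genes in WT. In VF against WT the length neighbours of Eif4ebp1 had a median of -1.79 and those of Eif4e of 1.34. With the length offset Eif4ebp1 was at -1.85 and Eif4e at -2.62, so there Eif4ebp1 fell less than Eif4e. Eif4ebp2, for a second such repressor, did not pass in any comparison of the fit of all libraries, nor did Eif4ebp3 or Eif4enif1, for a protein that carries eIF4E into the nucleus.

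Of the 3 scaffold genes 2 rose in each mutant against WT and 0 fell, before any account of length. Eif4g2 (Entrez gene 13690, chromosome 7, 111067985 to 111083030), for a relative of eIF4G that lacks the eIF4E site, was at 658, 772 and 776 CPM in VF, 1414, 1236 and 1319 in E12 and 283, 247 and 491 in WT. E12 was highest, VF lay between and WT was lowest, with no overlap. It rose in E12 (edgeR log2 fold change 1.96, SE 0.32, adjusted p = 0.0030) and in VF (edgeR log2 fold change 1.11, SE 0.32, adjusted p = 0.017) against WT. Genes near its 7760 bases had medians of 1.19 in VF and 1.10 in E12. With the length offset it was 0.77 in E12 (adjusted p = 0.014) but -0.29 in VF. For E12 against VF edgeR gave log2 fold change 0.85, SE 0.31, adjusted p = 0.19, 0.00020 with the mutants alone and from 0.00020 to 0.54 over 19 alternatives. Eif4g1, for the main scaffold, was at 154, 186 and 178 CPM in VF, 321, 319 and 263 in E12 and 96.9, 178 and 205 in WT, with E12 above all other libraries and VF within the WT range. It rose in E12 against WT (edgeR log2 fold change 0.91, SE 0.30, adjusted p = 0.037), with -0.29 under the length offset, and its log2 fold change of 0.11 in VF changed sign under 6 alternatives. Eif4g3, for the second scaffold, was at 64.4, 57.9 and 56.7 CPM in VF, 66.4, 69.1 and 38.5 in E12 and 23.0, 17.3 and 45.9 in WT. VF was above WT without overlap, E12 5 lay within the WT range, and Eif4g3 rose in VF against WT (edgeR log2 fold change 1.05, SE 0.38, adjusted p = 0.046), with -0.31 under the offset. The ratio of Eif4g2 to Eif4g1 per kilobase was 2.71 to 3.51 in the 6 mutant libraries and 2.05, 0.977 and 1.67 in WT, without overlap (exact permutation test, two-sided, p = 0.1 for each mutant, 0.179 adjusted).

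Eif4a1, for the main eIF4A, was at 498, 546 and 516 CPM in VF, 763, 666 and 633 in E12 and 817, 1215 and 1186 in WT. VF was lowest and WT highest, with no overlap. Eif4a1 fell in VF against WT (edgeR log2 fold change -1.04, SE 0.26, adjusted p = 0.011), although the deposited levels gave 0.33. Eif4a2, for its close relative, did not pass in any comparison of the fit of all libraries. Its VF against WT value of 0.17 was -0.78 with the length offset (adjusted p = 0.010) and 0.90 on the deposited levels (adjusted p = 0.0039), 2 calls in opposite directions. The ratio of Eif4a2 to Eif4a1 per kilobase was 0.198, 0.184 and 0.192 in VF, 0.114, 0.169 and 0.164 in E12 and 0.101, 0.0636 and 0.0883 in WT, and the groups were separate (exact permutation test, two-sided, p = 0.1 for each pair, the smallest possible, 0.179 adjusted). Eif4a2 shares exon bases with Rfc4 on the other strand. Eif4b and Eif4h, for cofactors of the helicase, did not pass against WT in the fit of all libraries. In VF, Eif4b was -1.11 with the length offset (adjusted p = 0.00043), -0.33 without WT 50 (adjusted p = 0.044) and 1.02 on the deposited levels (adjusted p = 0.011), and Eif4h was -0.73 without WT 50 (adjusted p = 0.0013).

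Promoter windows were searched for binding motifs of factors known to act on growth genes and downstream of JAK2. RefSeq windows (GRCm38.p6) of 250 bases before to 50 after the start were matched for 40 of 50 members. CACGTG, the E-box that Myc and USF proteins bind, reads the same on both strands and was in 10 of 40 (25%), in 11.7% of 10701 tested genes with a window and in 7.15% of all 32851 windows. TTCNNNGAA, the core that STAT proteins bind, also the same on both strands, was in 4 of 40 (10%), against 8.4% of tested genes and 8.3% of windows. In E12 against VF the median log2 fold change was 0.37 over the 10 members with CACGTG and 0.51 over the other 30. Stretches around the motif (capitals) are shown for the genes of eIF4E, eIF4G and eIF4A and for Eif5a, the most abundant member, from chr3:138527174-138527239 (plus strand), chr16:20672643-20672708 (plus), chr11:69672577-69672642 (minus) and chr11:69921425-69921490 (minus).
Eif4e: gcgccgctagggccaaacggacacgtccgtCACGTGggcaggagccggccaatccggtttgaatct
Eif4g1: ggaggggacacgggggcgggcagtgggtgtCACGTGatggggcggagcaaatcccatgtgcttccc
Eif4a1: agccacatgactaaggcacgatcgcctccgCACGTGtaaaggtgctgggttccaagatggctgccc
Eif5a: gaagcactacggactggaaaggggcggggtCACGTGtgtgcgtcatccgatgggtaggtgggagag
Motifs begin 64, 54, 189 and 74 bases before a RefSeq start, which need not be the outermost start of the gene. The stretches of Eif4e and Eif5a lie inside the annotated spans of these genes (138526191 to 138559696 and 69916712 to 69921958). The Eif5a motif shown is also 185 bases before another start. A match of letters is a description, not a binding site.

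Eif5a was the most abundant member per kilobase in every group, at 1036 ± 32.8 CPM per kb in VF, 1342 ± 216 in E12 and 4169 ± 2001 in WT (mean ± SD, n = 3). Library values were 2086, 2157 and 2024 CPM in VF, 3208, 2501 and 2412 in E12 and 12957, 7015 and 5255 in WT, with VF lowest, WT highest and no overlap. Eif5a fell in VF (edgeR log2 fold change -2.01, SE 0.41, adjusted p = 0.0041) and in E12 (edgeR log2 fold change -1.64, SE 0.40, adjusted p = 0.011) against WT. On the deposited levels limma gave -0.38 in VF (adjusted p = 0.36), and Eif5a was not called lower in E12 either. Its relative Eif5a2 had counts of 305, 201 and 180 in VF, 291, 343 and 387 in E12 and 0, 8 and 145 in WT, passed the filter only through the mutants, and its difference from WT did not pass. Next below Eif5a stood Eif4a1 at 277 ± 12.9 CPM per kb and Eif3g at 270.1 ± 4.37 in VF, which did not differ beyond their SD, and in WT Eif3g at 1711 ± 1232 and Eif4ebp1 at 1252 ± 1005, likewise. The kinase genes Eif2ak3 and Eif2ak4 were among the lowest in each group. Eif6, for the factor that keeps the large subunit from joining early, was at 232, 225 and 210.4 CPM in VF, 308, 251 and 241 in E12 and 2600.4, 829.5 and 668 in WT, with WT far above both mutants and WT 50 at the top. Eif6 fell in VF (edgeR log2 fold change -2.62, SE 0.51, adjusted p = 0.0035) and in E12 (edgeR log2 fold change -2.36, SE 0.50, adjusted p = 0.0071).

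Genes of related steps of translation were read from the same fit. Of 53 tested genes in 7 lists, 19 fell and 11 rose in VF, and 16 fell and 11 rose in E12 against WT, beside the shares of all genes given above (20.9% and 27.7%, 18.1% and 23.9%). With only the 2 groups fitted, 16 fell and 9 rose in VF, where 16.2% of all genes fell and 21.3% rose. In E12 4 fell and 7 rose, near the shares of all genes there (10.5% and 12.7%). In E12 against VF 3 rose and 0 fell (2.19% and 1.02% of all genes). In the fit of the mutants alone 28 rose and 5 fell (25.4% and 22.6% of all genes). Of 8 elongation factors 5 fell and 0 rose in each mutant against WT, but 3 in VF and 0 in E12 with only the 2 groups fitted. Eef1d, for a subunit of the eEF1 exchange complex, was at 188 ± 11.8 CPM in VF, 336 ± 43.1 in E12 and 1164 ± 803 in WT (edgeR log2 fold change -2.63, SE 0.46, adjusted p = 0.0022 for VF). Both enzymes that make the hypusine of eIF5A fell in both mutants against WT, with Dohh at 86.0 ± 3.26, 144 ± 14.2 and 297 ± 127 CPM (edgeR log2 fold change -1.79, SE 0.31, adjusted p = 0.0023 for VF). With only the 2 groups fitted both still fell in VF, but 0 of 2 passed in E12. Of 9 mitochondrial translation factors 5 fell and 1 rose in VF and 4 fell and 1 rose in E12 against WT, and Tufm, for the mitochondrial elongation factor, rose in E12 against VF (edgeR log2 fold change 1.02, SE 0.20, adjusted p = 0.033).

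Genes around eIF2 and eIF4F were mixed. Against WT, 27.7% of all tested genes rose and 20.9% fell in VF, and 23.9% rose and 18.1% fell in E12. Lists of 3 to 8 genes are too short to be set against these shares. Of 8 tested genes of the eIF2 pathway 4 rose and 2 fell in VF, and 4 rose and 1 fell in E12. Gcn1l1, for the partner that activates GCN2, was at 87.3 ± 3.53 CPM in VF, 191 ± 19.5 in E12 and 57.2 ± 9.19 in WT and rose in E12 against VF (edgeR log2 fold change 1.13, SE 0.21, adjusted p = 0.029). Atf4, for the transcription factor induced when eIF2 is phosphorylated, was at 54.4 ± 5.72, 108 ± 14.0 and 128 ± 38.3 CPM and fell in VF against WT (edgeR log2 fold change -1.24, SE 0.26, adjusted p = 0.0048). Of 17 regulators of eIF4F, 4 rose and 3 fell in VF and 3 rose and 3 fell in E12, near the shares of all genes. Pdcd4, for an inhibitor of eIF4A, was at 314 ± 43.1, 114 ± 27.5 and 64.5 ± 26.5 CPM and rose in VF against WT (edgeR log2 fold change 2.28, SE 0.35, adjusted p = 0.0013), the opposite order of groups to Eif4a1. Pabpc4, for a poly(A)-binding protein, rose in E12 against VF (edgeR log2 fold change 1.26, SE 0.25, adjusted p = 0.034). Of 6 genes for ribosome recycling and helper helicases 1 rose and 2 fell in VF, and 2 rose and 1 fell in E12, among them Abce1, for the recycling ATPase, at 220.1 ± 14.1, 409.7 ± 8.84 and 87.6 ± 15.8 CPM (edgeR log2 fold change 2.23, SE 0.24, adjusted p = 0.00068 for E12). Of 3 termination factors 1 rose in each mutant and 0 fell.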

How the data were processed

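Libraries were made with Smart-Seq2 from PicoPure RNA, per the labels' protocols, a method without molecular identifiers or strand. The deposited table holds whole-number counts per gene with a gene length. STAR, limma, GRCm38 and mm10 are named, per the submitters' processing notes, without roles, and no counting tool is given in the sources used here. Deposited log2 expression levels, whose distributions are near-identical across libraries, served as an alternative only.

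Counts were tested with edgeR 4.0.16 in R 4.3.3: filterByExpr, TMM factors and 1 quasi-likelihood fit of all 9 libraries with group as its only term, with two-sided p adjusted by Benjamini-Hochberg over 13608 genes and calls under 0.05. The fit was tested on simulated counts, where large changes were found more often than small ones and many small ones were missed. Length neighbours are the 200 tested non-members nearest in log length, with 50 and 500 as alternatives. The length offset is a lowess curve (span 0.3) per library. Other alternatives were DESeq2 1.42.0, limma 3.58.1 on the levels, RLE and upper-quartile factors, other filters, a replicate block, fits of 2 groups and leaving out libraries. Ratios within libraries were tested by exact permutation. Single-library values are given for up to 8 called members per direction with the largest fold change and at least 10 CPM, and for Eif4e, Eif4g1, Eif4a1, Eif2s1, Eif2ak1, Eif4ebp1, Eif3a, Eif5a and Eif6. Other members with values in the text were chosen after their values were seen. Overlaps of exons come from GENCODE M21. Members, lists and tests were chosen with earlier results of these data known. No whole-series comparison beyond these genes was made.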

Additional observations from a re-analysis of the deposited data

How the results depend on the processing

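Counts of called members moved with the libraries, filter, scaling and tool. Shares of all genes called stand beside some of these counts in the sections above. None is given for the filters, the scaling factors, the replicate block and most fits with 1 library left out. For those settings it cannot be told whether the members or all genes moved. For VF against WT the 3 higher calls became 1 without the low-count filter, 1 with only the 2 groups and 9 on the deposited levels, and ran from 0 (without WT 51) to 4 with 1 library left out, while lower calls ran from 20 to 35. For E12 against WT the 6 higher calls became 2 without the filter and with only the 2 groups, 10 with at least 10 counts in every library and without WT 50 and E12 5 together, and 14 on the levels, and ran from 3 to 9 with 1 library left out. Lower calls there were 11 with only the 2 groups and ran from 11 (without E12 2 or E12 5) to 28. For E12 against VF the 2 higher calls became 0 with RLE factors, with upper-quartile factors and without the filter, 7 on the levels, 14 by DESeq2, 16 with the length offset, 24 without WT 50 and E12 5 and 40 with the mutants alone, and ran from 0 to 24 with 1 library left out, with 0 to 1 lower and 1 lower with the mutants alone.

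Labels of VF and E12 share only the numbers 1 and 2, and same-numbered libraries correlated at 0.031 and 0.119 in their deviations, so the numbers were not taken as pairs. With a replicate block 0 members were called higher and 11 lower in VF, 0 and 1 in E12 against WT, and 0 higher in E12 against VF, and the median difference from length neighbours was -0.90 in VF and -0.44 in E12 against WT.

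That median, -0.82 in VF, was -0.57 with at least 10 counts in every library, -0.041 on the levels and -0.94 without WT 50 and E12 5, and ran from -0.93 to -0.79 with 1 library left out. In E12 against WT, -0.33 became -0.19 with at least 10 counts, turned to 0.25 on the levels and ran from -0.47 to -0.26. In E12 against VF, 0.50 became 0.41 with at least 10 counts, 0.34 on the levels, 0.59 without WT 50 and E12 5 and 0.57 with 50 neighbours, and ran from 0.46 to 0.59.

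Of the named genes under each alternative, 743 values kept direction and call, 118 lost and 49 gained the call, and 21 changed sign. In VF against WT Eif4g1 turned to -0.019 with RLE factors, -0.044 without the filter, -0.020 by DESeq2, -1.25 with the length offset, -0.24 without WT 50 and E12 5 and -0.27 without WT 50, and ran from -0.27 to 0.19 with 1 library left out. The offset turned Eif4g2 to -0.29, Eif4g3 to -0.31 and Eif2ak4 to -0.49 there, and in E12 against WT Eif4g1 to -0.29, Eif3a to -1.02, Eif2ak4 to -0.29 and Eif2ak3 to -0.31. The levels turned Eif4a1 to 0.33, Eif2s1 to 0.24, Eif2ak1 to 0.014 and Eif3a to 0.79 in VF, and Eif4e to 0.078, Eif4a1 to 0.57 and Eif2s1 to 0.77 in E12 against WT, and Eif3a ran there from -0.039 (without WT 51) to 0.30. The cause was not tested. Depth was highest in WT, and Eif5a2, at 0 counts in WT 50, is the one member with a library at 0.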
